A study of Mus musculus with 3 samples.

Results

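The genes that drive a cell through G2 and mitosis were followed in NIH3T3 fibroblasts stimulated with GDF15 or TGF-β. They were taken from a list of 43 genes named for their known role in G2 or mitosis and matched by gene symbol to a table of 15554 rows. Of these, 42 were present, and *Cenpf* was not analysed here. NIH3T3 cells are an established fibroblast line from mouse embryos. Cells grown with serum were first held without serum for 24 h, in every group. They then spent a further 24 h in fresh serum-free medium, either alone (CTRL) or with GDF15 at 100 ng/mL or TGF-β at 4 ng/mL. The RNA of each treatment was pooled into 1 stranded mRNA library, so that all 3 groups are serum-deprived cells of a single line and each rests on a single library. For want of replicates, no difference was tested and no p-value is printed.

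Entry into mitosis is driven by cyclin-dependent kinase 1 bound to A and B type cyclins. Polo-like and Aurora kinases then organise the spindle, the spindle checkpoint holds anaphase back until every kinetochore is attached, and the anaphase-promoting complex ends mitosis by destroying securin and cyclin B. Most of these genes are transcribed in a burst in G2 and M phase and are silent in resting cells, so that their mRNA in a culture reflects both how many cells are cycling and how much each cell makes. In a pooled library these cannot be told apart.

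The burst is classically tied to promoter elements that lie close to the start of transcription. One is the CHR (cell cycle genes homology region), searched here as TTTGAA on both strands, and another is the CCAAT box bound by NF-Y, searched as CCAAT on both strands. In RefSeq (GRCm38.p6), promoters were found for 35 of the 42 genes, and the 250 bases before each annotated start were examined. A CHR was present for 10 of the 35 (28.6%), against 12.7% of 7470 expressed genes with a promoter and 16.0% of all 32851 promoters. A CCAAT box was present for 25 (71.4%), against 41.6% of the expressed genes and 33.8% of all promoters. Both motifs in 1 promoter were found for 9 genes (25.7%) and for 5.10% of the expressed genes. The matches describe the letters in this window only. The promoters of the 4 most abundant genes with a CHR are shown, since these carry both the motif and the largest amounts of mRNA. Each is written 5′ to 3′ on the strand of the gene and ends at the base before the start, with CHR and CCAAT matches on either strand in capitals.
Ube2c (chr2:164769679-164769928, plus strand): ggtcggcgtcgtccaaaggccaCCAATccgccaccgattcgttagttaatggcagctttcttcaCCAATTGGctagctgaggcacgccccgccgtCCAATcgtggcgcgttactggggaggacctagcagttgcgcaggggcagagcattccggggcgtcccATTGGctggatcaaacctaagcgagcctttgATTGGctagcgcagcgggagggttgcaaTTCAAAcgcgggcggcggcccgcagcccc
Top2a (chr11:99024190-99024439, minus strand): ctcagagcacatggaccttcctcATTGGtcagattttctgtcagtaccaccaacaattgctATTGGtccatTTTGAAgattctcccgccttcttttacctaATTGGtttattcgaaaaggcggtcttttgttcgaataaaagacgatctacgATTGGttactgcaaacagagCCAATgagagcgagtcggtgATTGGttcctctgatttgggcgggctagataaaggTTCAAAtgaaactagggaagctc
Cdc20 (chr4:118437344-118437593, minus strand): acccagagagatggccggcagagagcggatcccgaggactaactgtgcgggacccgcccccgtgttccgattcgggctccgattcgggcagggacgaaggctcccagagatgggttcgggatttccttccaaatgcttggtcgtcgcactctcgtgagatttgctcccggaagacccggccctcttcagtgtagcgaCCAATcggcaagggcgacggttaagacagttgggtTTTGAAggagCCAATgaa
Prc1 (chr7:80294226-80294475, plus strand, the downstream of its annotated starts): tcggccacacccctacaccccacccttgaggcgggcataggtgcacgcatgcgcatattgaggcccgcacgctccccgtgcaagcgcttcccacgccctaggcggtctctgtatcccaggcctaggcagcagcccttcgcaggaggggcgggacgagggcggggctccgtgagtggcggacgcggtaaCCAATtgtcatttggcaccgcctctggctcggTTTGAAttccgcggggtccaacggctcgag

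In these sequences the CHR nearest to the start begins 29 bases before it in *Ube2c*, 23 in *Top2a*, 18 in *Cdc20* and 30 in *Prc1*. *Ube2c* and *Top2a* carry 6 CCAAT boxes each. In *Ube2c*, a pair of these boxes overlaps on opposite strands. *Cdk1* has CHR matches 71 and 15 bases before its start, and that of *Kif11* begins at 19 bases. The remaining CHR matches, in *Kif2c*, *Ckap2*, *Ect2* and *Ccnb2*, lie over 100 bases from the start.

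**Figure D1:**
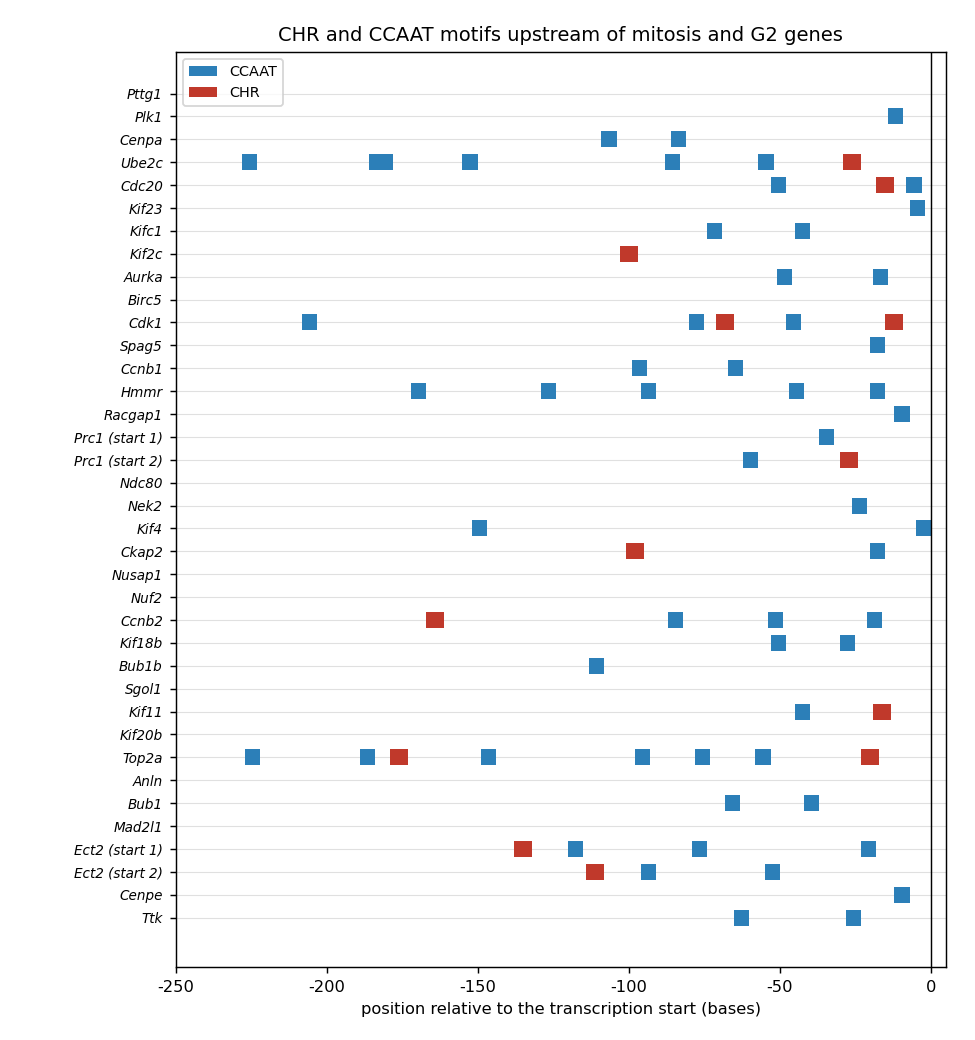
Positions of CHR (TTTGAA, red) and CCAAT (blue) matches on either strand in the 250 bases before each annotated start, for the 35 genes with a promoter, ordered from the largest to the smallest decrease by TGF-β. The x axis is the distance to the start in bases. CHR matches within 30 bases of the start are seen for *Ube2c*, *Cdc20*, *Cdk1*, *Prc1*, *Kif11* and *Top2a*, and *Top2a* and *Ube2c* have the most CCAAT boxes.

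The values are FPKM, fragments scaled to transcript length and to library size, as the authors calculated them with Cufflinks. FPKM can therefore be compared between genes. Read totals were not analysed here. The smallest values step by the worth of 1 fragment, which put the depth at an estimated 17200000 fragments (CTRL), 20200000 (GDF15) and 16600000 (TGF-β). At these depths each of the 42 genes was covered by an estimated 89.8 to 4325 fragments per library (median 570.4), so that counting error alone was between 1.52% and 10.6% of a value (median 4.19%). The fibroblast markers examined (10 genes, among them *Col1a1*, *Vim* and *Pdgfrb*) were at FPKM of 34.7 to 5815, and *Epcam* was listed at 0 in all 3 libraries. The 11 epithelial, leukocyte and endothelial markers in all were at or below an FPKM of 1.67, and their sums in a library reached at most 0.735, 1.85 and 0.175.

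All 42 genes were detected in serum-deprived cells. In CTRL, FPKM ran from 2.37 (*Sgol1*, which guards centromeric cohesion) to 45.7 (*Ube2c*, the ubiquitin-conjugating enzyme of the anaphase-promoting complex), with a median of 11.4. The median was 10.9 in GDF15 and 7.43 in TGF-β. Every gene passed the minimum mean FPKM of 1 that 9226 rows of the table reached, so no gene was lost to the filter. Summed over the 42 genes, FPKM was 617 (CTRL), 580.5 (GDF15) and 404 (TGF-β). For these genes the TGF-β library stood at 65.6% of CTRL and the GDF15 library at 94.1%. Over all 15554 rows the sums were 331179 (CTRL), 306603 (GDF15) and 310599 (TGF-β), so that both stimulated libraries also had lower totals than CTRL.

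After TGF-β, 42 of the 42 genes were lower than in CTRL and 0 were higher. Among the 9226 genes that reached the minimum mean FPKM, called the genes tested although no significance test was run, 62.8% were lower. The change, taken as the difference of log2(FPKM + 1), had a median of -0.52 (quartiles -0.58 and -0.44), whereas over all genes it was -0.074 (quartiles -0.23 and 0.079). In FPKM, the median gene was at 67.2% of its CTRL value. The decrease exceeded 1.5-fold for 11 genes, against 3.06% of all genes, and no gene was over 1.5-fold higher, against 2.54%. None passed 2-fold, the criterion of the study, against 1.48% of all genes in either direction. The 11 were *Pttg1*, *Cdc25c*, *Plk1*, *Cenpa*, *Ube2c*, *Cdc20*, *Kif23*, *Kifc1*, *Kif2c*, *Aurka* and *Birc5*. Rescaling the libraries to a common upper quartile or total left all 42 genes lower and brought the share of all genes that were lower to 52.3% or 48.5%. A pseudocount of 1 understates changes at low FPKM, and without it 20 genes were over 1.5-fold lower, against 4.82% of all genes, and 2 over 2-fold lower, against 2.31% of all genes in either direction. With the trends of length and GC content removed, 6 genes were over 1.5-fold lower, against 1.81%.

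After GDF15, in contrast, 22 genes were lower and 20 higher than in CTRL, near the 55.6% of all genes that were lower. The median change was -0.018 (quartiles -0.18 and 0.097) and that of all genes was -0.033 (quartiles -0.18 and 0.11). The range was -0.51 to 0.28. No gene was over 1.5-fold lower or higher, compared with 1.55% and 1.27% of all genes, and none was over 2-fold apart (0.477% of all genes). Under scaling to a common total, 16 of the 42 genes and 38.6% of all genes were lower, so that the direction by GDF15 turned for *Nek2*, *Nuf2*, *Kif2c*, *Spag5*, *Ckap2* and *Racgap1*. With the trends of length and GC content removed, 28 genes were lower, against 49.8% of all genes. In that setting *Anln*, *Cenpe*, *Hmmr*, *Kif11*, *Kif4*, *Mad2l1*, *Nusap1*, *Prc1* and *Sgol1* turned from higher to lower, and *Ccnb2*, *Kif2c* and *Nek2* from lower to higher. Both comparisons use the same CTRL library.

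In the direct comparison of the stimulated libraries, which does not use CTRL, all 42 genes were lower in TGF-β than in GDF15 (60.3% of all genes). This comparison shares its single TGF-β library with the one against CTRL. The median difference was -0.49 and that of all genes -0.040. It exceeded 1.5-fold for 7 genes, namely *Kif23*, *Kif20b*, *Hmmr*, *Cdc25c*, *Top2a*, *Ccnb1* and *Bub1b* (0.629% of all genes). No gene was over 1.5-fold higher in TGF-β (0.91% of all genes) and none was over 2-fold apart on this scale (0.163%). Without the pseudocount, 17 genes were over 1.5-fold lower, against 1.60% of all genes, and *Kif23* was over 2-fold lower, against 0.412% in either direction. The 7 became 4 after upper quartile scaling (0.488% of all genes) and 3 with the trends of length and GC content removed (0.457%). TGF-β was the lowest library for every gene, with the order CTRL, GDF15, TGF-β for 22 genes and GDF15, CTRL, TGF-β for 20.

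**Figure D2:**
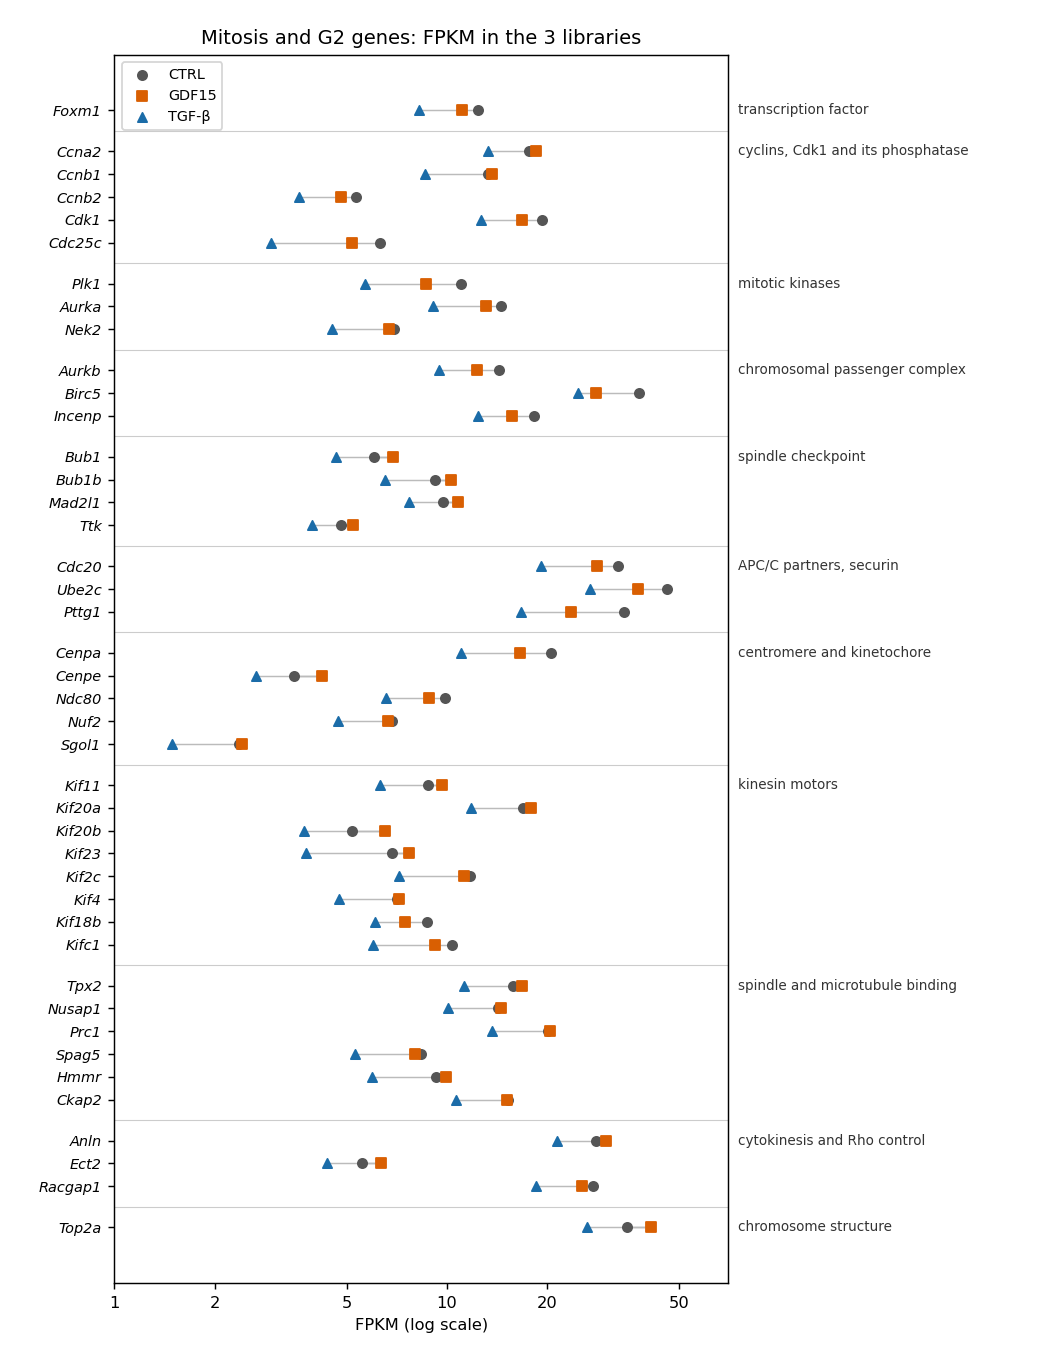
FPKM (log scale) of the 42 genes in the CTRL (grey circles), GDF15 (orange squares) and TGF-β (blue triangles) libraries, 1 library per treatment, grouped by role. The TGF-β symbol is the leftmost in every row, and GDF15 lies left of CTRL for 22 genes and right of it for 20.

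Upstream of the group stands *Foxm1*, the transcription factor that activates many G2 and M phase genes. Its FPKM was 12.4 (CTRL), 11.1 (GDF15) and 8.26 (TGF-β), so that it was lower in both stimulated libraries, with changes of -0.15 by GDF15 and -0.54 by TGF-β. The change by TGF-β is close to the median of the group.

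Among the cyclins and their kinase, *Cdk1*, the kinase that drives mitotic entry, had an FPKM of 19.3 (CTRL), 16.8 (GDF15) and 12.6 (TGF-β). *Ccna2*, cyclin A2, was at 17.6, 18.5 and 13.3 in the same order. *Ccnb1*, cyclin B1, was at 13.2, 13.6 and 8.62. *Ccna2* and *Ccnb1* were level or slightly higher in GDF15 and lower in TGF-β, at 75.3% and 65.0% of CTRL. *Ccnb2*, cyclin B2, was at 5.31, 4.79 and 3.60. The largest decrease of these 5 genes by TGF-β was that of *Cdc25c*, the phosphatase that removes inhibitory phosphates from Cdk1, with 6.27 (CTRL), 5.17 (GDF15) and 2.97 (TGF-β). At 47.3% of CTRL it had the lowest ratio of FPKM of all 42 genes, without a pseudocount, although its 95.9 estimated fragments in TGF-β leave a counting error of 10.2%.

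The mitotic kinases *Plk1*, *Aurka* and *Nek2* were all lower after TGF-β. *Plk1*, the polo-like kinase needed for centrosome maturation, was at 11.0 (CTRL), 8.64 (GDF15) and 5.66 (TGF-β), which is 78.3% and 51.3% of CTRL. *Aurka*, the centrosomal Aurora kinase, was at 14.5, 13.1 and 9.05, and *Nek2*, a kinase of centrosome separation, at 6.92, 6.72 and 4.53. The order of the 3 libraries was the same for these genes, but GDF15 was within 3% of CTRL for *Nek2* only.

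In the chromosomal passenger complex, which corrects faulty attachments, the kinase *Aurkb* was at 14.3 (CTRL), 12.3 (GDF15) and 9.45 (TGF-β). Its scaffold *Incenp* was at 18.3, 15.7 and 12.4, and its subunit *Birc5* (survivin) at 37.8, 28.1 and 24.8. *Birc5* was the gene in which the stimulated libraries lay closest, with TGF-β at 88.3% of GDF15, and its change from CTRL in GDF15 was -0.42. The sum of the 3 genes was 70.4 (CTRL), 56.2 (GDF15) and 46.7 (TGF-β).

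The spindle checkpoint genes had the smallest median decrease by TGF-β of the roles with 3 or more genes (-0.32). *Ttk*, the kinase that starts checkpoint signalling, was at 4.82 (CTRL), 5.22 (GDF15) and 3.92 (TGF-β) and had the smallest decrease by TGF-β of all 42 genes (-0.24). *Mad2l1*, the inhibitor of Cdc20, was at 9.76, 10.8 and 7.67. The kinase *Bub1* was at 6.03, 6.88 and 4.63, and *Bub1b*, which encodes BubR1, at 9.21, 10.3 and 6.53. All 4 were higher in GDF15 than in CTRL, by changes of 0.10 to 0.16 (*Mad2l1* was lower with length and GC trends removed), and lower in TGF-β, by changes of -0.44 to -0.24.

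The partners of the anaphase-promoting complex and its substrate had the largest median decrease by TGF-β of the roles (-0.74), and all 3 were also lower in GDF15. *Pttg1*, the securin that holds separase inactive, was at 34.0 (CTRL), 23.6 (GDF15) and 16.6 (TGF-β). Its changes of -0.51 by GDF15 and -0.99 by TGF-β were the lowest of the 42 genes in both comparisons with CTRL, although without the pseudocount *Cdc25c* was lower than *Pttg1* by TGF-β. *Cdc20*, the activator of the complex, was at 32.8, 28.2 and 19.2, and *Ube2c* at 45.7, 37.6 and 26.9. Summed, these 3 genes were at 113 (CTRL), 89.3 (GDF15) and 62.8 (TGF-β), or 79.4% and 55.8% of CTRL, compared with 111% and 76.3% for the checkpoint genes.

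Of the centromere and kinetochore genes, *Cenpa*, the histone H3 variant that marks the centromere, had the highest level and the largest decrease, with 20.6 (CTRL), 16.5 (GDF15) and 11.0 (TGF-β). The kinetochore motor *Cenpe* was at 3.47, 4.22 and 2.66. It was higher in GDF15 than in CTRL by 0.22, though lower with length and GC trends removed, and lower in TGF-β by a change of -0.29. *Ndc80* and *Nuf2*, which form the microtubule-binding arm of the kinetochore, were at 9.83, 8.83 and 6.55 and at 6.82, 6.67 and 4.69. *Sgol1* was at 2.37, 2.42 and 1.49, the lowest level in each library. Its change by TGF-β was -0.44, and its FPKM in TGF-β was 62.9% of CTRL, which is a change of -0.67 without the pseudocount.

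The kinesin motors were mixed in GDF15, where 5 of 8 were higher than in CTRL (with *Kif2c* added under scaling to a common total, and with *Kif2c* in place of *Kif11* and *Kif4* when length and GC trends were removed), and uniform in TGF-β, where all 8 were lower. *Kif20a*, a motor of the central spindle, was the most abundant, at 16.9 (CTRL), 17.9 (GDF15) and 11.8 (TGF-β). *Kif23*, a subunit of centralspindlin, was at 6.83, 7.66 and 3.77. It had the largest difference between the stimuli of all 42 genes (-0.86), with TGF-β at 49.2% of GDF15. *Kif20b*, a motor needed late in cell division, was at 5.18, 6.51 and 3.71 and had the largest increase by GDF15 of the 42 genes (0.28). *Kif18b*, a motor that controls microtubule length, had the largest decrease by GDF15 among the motors, with 8.69, 7.49 and 6.08. The spindle-opening motor *Kif11* was at 8.77, 9.69 and 6.28. In TGF-β, *Kif23* was at 55.2% of CTRL and *Kif11* at 71.6%. The microtubule depolymerase *Kif2c* was at 11.7, 11.2 and 7.20. The chromokinesin *Kif4* was at 7.09, 7.18 and 4.74, and the minus-end motor *Kifc1* at 10.3, 9.17 and 5.98.

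Among spindle and microtubule proteins, *Prc1*, which bundles antiparallel microtubules of the midzone, was the most abundant, with 20.1 (CTRL), 20.4 (GDF15) and 13.7 (TGF-β). *Spag5* (astrin) was at 8.34, 8.01 and 5.28, and *Hmmr*, a spindle and hyaluronan-binding protein, at 9.25, 9.94 and 5.96. *Tpx2*, the activator of Aurora A, was at 15.7, 16.8 and 11.3. All 6 genes of this group, with *Nusap1* and *Ckap2*, lay within -0.051 to 0.093 of CTRL in GDF15 and between -0.57 and -0.45 in TGF-β. This was the narrowest spread of the roles with 5 or more genes.

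For cytokinesis, *Anln* (anillin, of the contractile ring) was at 28.0 (CTRL), 30.2 (GDF15) and 21.4 (TGF-β). *Racgap1*, the other centralspindlin subunit, was at 27.5, 25.5 and 18.6, and *Ect2*, the exchange factor that activates RhoA at the midzone, at 5.56, 6.33 and 4.36. *Racgap1* was lower in both stimulated libraries (level with CTRL in GDF15 under scaling to a common total), whereas *Anln* (not with length and GC trends removed) and *Ect2* were higher in GDF15 and lower in TGF-β. *Top2a*, which untangles sister chromatids, was at 34.8 (CTRL), 41.0 (GDF15) and 26.4 (TGF-β) and had the highest FPKM of the 42 genes in GDF15. It was 118% of CTRL in GDF15 and 75.9% in TGF-β.

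**Figure D3:**
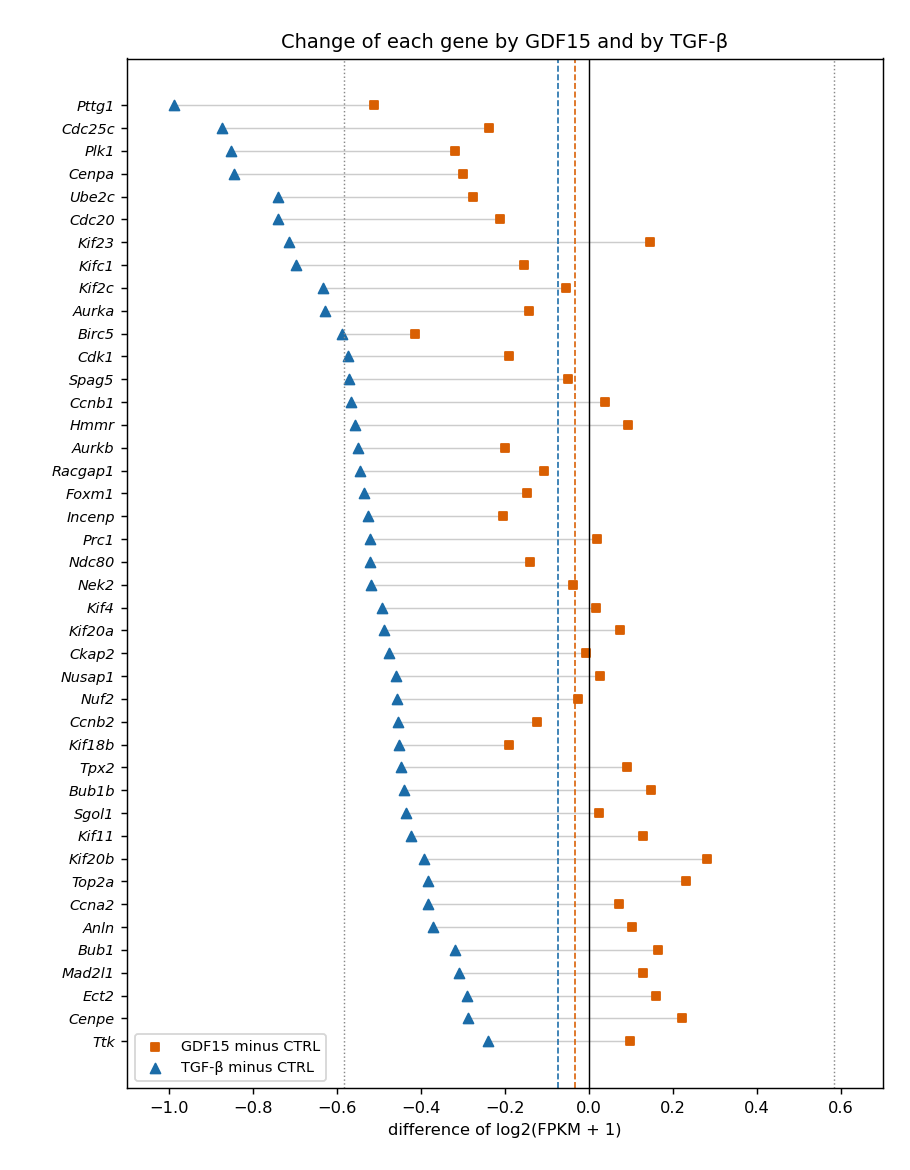
Difference of log2(FPKM + 1) from CTRL for each of the 42 genes, GDF15 in orange squares and TGF-β in blue triangles, ordered by the change by TGF-β. Dashed lines mark the medians of all 9226 genes tested (-0.033 and -0.074) and dotted lines 1.5-fold. Every triangle lies left of both the zero line and its square, from -0.99 (*Pttg1*) to -0.24 (*Ttk*), while squares lie on both sides of zero.

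The changes by GDF15 moved with transcript length, whose part in them was not tested. The longest coding transcript (GENCODE M21) had a median of 3281 bases over the 42 genes. Of the 21 genes up to this length, 17 were lower in GDF15 than in CTRL (median change -0.14), against 71.3% of all genes up to this length. Of the 21 longer genes 5 were lower (median 0.093), against 38.0% of all longer genes. The medians of all genes were -0.12 up to this length and 0.059 above it. *Pttg1*, *Cenpa* and *Cdc20*, with transcripts of 1674, 1466 and 1793 bases, were among the genes lower in GDF15, and *Top2a*, *Kif20b* and *Cenpe*, with 5221, 5564 and 7910 bases, had the largest increases. *Birc5* (-0.42, 3334 bases), *Cdk1* (-0.19, 4375 bases) and *Foxm1* (-0.15, 4652 bases) were lower in GDF15 and in the longer class. For TGF-β all 21 genes of either class were lower, with medians of -0.55 and -0.45, against -0.12 and -0.023 for all genes. After the trend with length was removed, all 42 genes were still lower in TGF-β (median -0.44), and 19 were lower in GDF15 (median 0.0065).

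**Figure D4:**
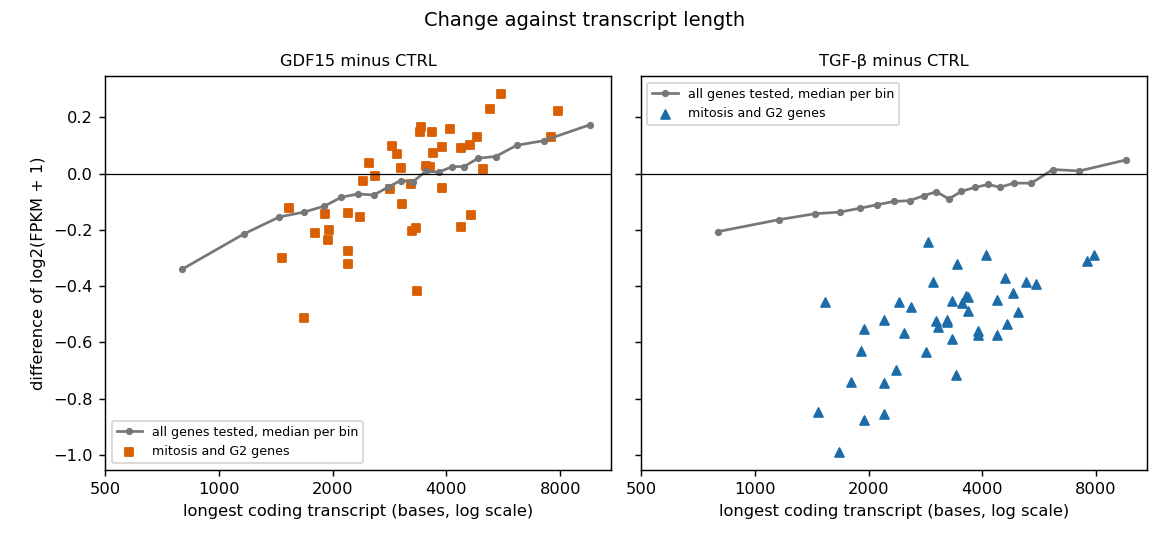
Difference of log2(FPKM + 1) from CTRL against the length of the longest coding transcript (bases, log scale), for GDF15 on the left and TGF-β on the right. The grey line joins medians of all genes tested in 20 bins of length, and coloured symbols are the 42 genes. In GDF15 the genes scatter around the rising grey line, and in TGF-β all lie below it.

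Genes outside the list but of the same pathway were examined in lists of their own. Of 45 further mitosis genes, 45 were lower after TGF-β, against 62.8% of all genes, with a median change of -0.42, and 9 were over 1.5-fold lower, against 3.06%. Without the pseudocount 15 were, against 4.82%. The largest changes were those of *Psrc1*, a spindle protein (31.4, 21.7 and 17.3 in CTRL, GDF15 and TGF-β), the Ndc80 complex subunit *Spc24* (4.01, 2.64 and 1.91), *Troap* (a change of -0.69), *Oip5*, which helps load Cenpa (8.39, 6.67 and 4.89), and *Ccnf*, cyclin F (9.44, 8.53 and 5.71). After GDF15, 31 of these 45 were lower, against 55.6% of all genes, with a median of -0.11, and none was over 1.5-fold lower, against 1.55% (2 genes against 2.70% without the pseudocount). Their shares of promoters with a CHR (32.4%) and a CCAAT box (64.9%), among 37 with a promoter, were near those of the 42 genes.

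Other parts of the machinery had smaller medians. The 7 condensin subunits found were all lower after TGF-β, as were 62.8% of all genes, with a median of -0.16 and the lowest values for *Ncapd2* (-0.48) and *Ncaph* (-0.48). Of the 5 cohesin subunits, 4 were lower (median -0.11). The core subunits of the anaphase-promoting complex and its coactivator *Fzr1*, 14 genes in all, had a median of -0.049 by TGF-β, close to that of all genes, with the lowest change for *Fzr1* (-0.37). Of the 14, *Anapc13* passed 1.5-fold, lower in GDF15 (94.6, 57.4 and 76.9), against 1.55% of all genes. The 12 factors of the DREAM and MuvB complexes, which bind the CHR and repress or activate these promoters, had a median of -0.084, and *Mybl2* (B-Myb) was at 3.86, 3.55 and 3.46. Of 9 genes that control entry into mitosis, *Gadd45a*, a stress-induced gene linked to G2 arrest, was over 1.5-fold higher by TGF-β (61.7, 77.7 and 94.1), against 2.54% of all genes. The largest decrease of the 9 was that of *Chek2*, a checkpoint kinase, at 3.58, 3.18 and 2.14 (-0.55), which is 59.7% of CTRL and past 1.5-fold without the pseudocount. The kinase *Wee1*, which restrains Cdk1, was at 7.90, 8.83 and 6.27, and the Cdk inhibitor gene *Cdkn1a* (p21) at 240.0, 195 and 199.

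Genes of DNA replication and the G1/S transition, which precede mitosis in the cycle, also had smaller decreases. Of 41 tested, 34 were lower after TGF-β, against 62.8% of all genes, with a median of -0.16. Over 1.5-fold lower were 2, against 3.06% of all genes, *Rfc4* (11.3, 8.86 and 6.92) and *Gins3* (3.14, 2.84 and 1.70). Without the pseudocount 3 passed this fold, with *Pola2* added at 65.7% of CTRL, against 4.82% of all genes. In that setting *Ung*, a uracil-DNA glycosylase, was over 1.5-fold higher, though not with a pseudocount of 1. The share of all genes that much higher without the pseudocount is not given here. *Pcna*, the sliding clamp, was at 65.3 (CTRL), 66.2 (GDF15) and 69.2 (TGF-β), or 106% of CTRL in TGF-β. The largest increases by TGF-β in the list were those of *Ung* at 177% of CTRL (0.47), and of cyclin E1 (*Ccne1*) at 3.29, 4.00 and 4.25 (0.29). Of the helicase subunits and their partner *Mcm10*, *Mcm2* and *Mcm6* were at 100.2% and 104% of CTRL in TGF-β, and *Mcm3*, *Mcm4*, *Mcm5*, *Mcm7* and *Mcm10* at 96.5%, 91.5%, 84.6%, 88.6% and 81.0%. After GDF15 the median of these genes was -0.094. A CHR was present in 12.5% and a CCAAT box in 56.2% of their 32 promoters. Among 11 detected D cyclins, partner kinases, Cdk inhibitors and *Myc*, the median was -0.27 by TGF-β and -0.18 by GDF15. *Ccnd1*, cyclin D1, was at 85.8, 80.0 and 73.7. With 1 library per treatment, the difference between the mitosis genes and these lists was not tested.

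**Figure D5:**
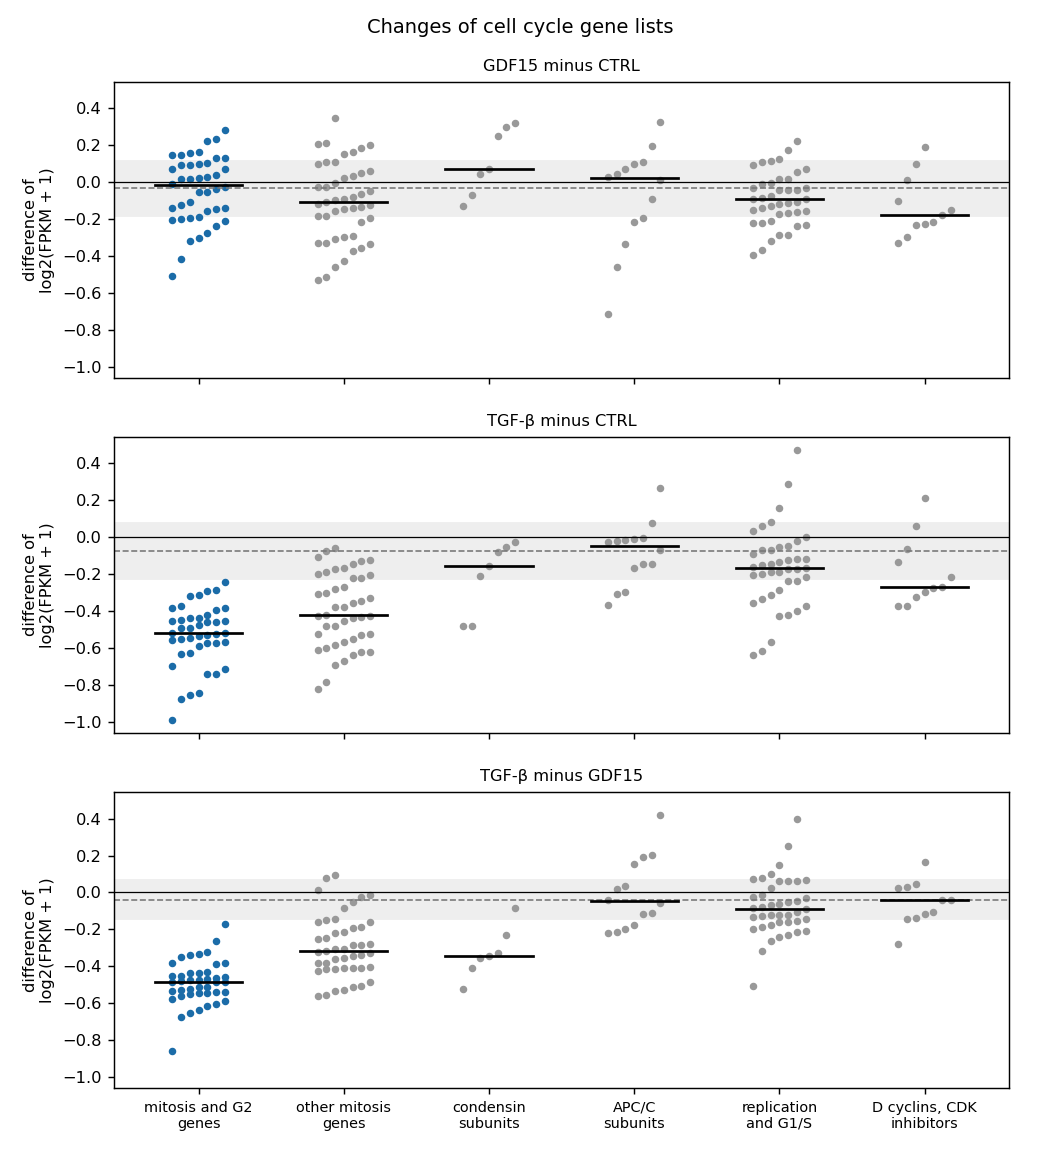
Difference of log2(FPKM + 1) for the 42 mitosis and G2 genes (blue) and for other cell cycle lists (grey), each point a gene and each black bar a median. The grey band and dashed line are the quartiles and median of all genes tested, and the panels are GDF15 minus CTRL, TGF-β minus CTRL and TGF-β minus GDF15. In both panels with TGF-β all blue points lie below zero, with medians of -0.52 and -0.49, and replication genes lie nearer to the band.

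Within the 42 genes, the medians with and without each motif lay close together. The 10 genes with a CHR had a median change by TGF-β of -0.50 (range -0.74 to -0.29), and the 25 without one a median of -0.52 (range -0.99 to -0.24). With and without a CCAAT box the medians were -0.52 and -0.46. *Pttg1* has neither motif in its window, and *Cdc25c* and *Foxm1* had no promoter entry.

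Some of the values may include reads of other genes. Exons of 10 of the 42 genes overlap exons on the opposite strand, such as those of *Kif20a* with *Cdc23* (1271 bases), *Prc1* with *Rccd1* (911), *Kif4* with *Pdzd11* (832), *Ube2c* with *Tnnc2* (592) and *Ccna2* with *Exosc9* (510). The libraries were stranded, but whether strand was used in counting is not given in the sources used here. Sequences at least 95% identical over 200 bases or more were found in other genes for 5 of the 42, namely *Ccnb1* (4 pseudogenes), *Kifc1* (*Kifc5b*, 96.8% over 2312 bases), *Mad2l1*, *Ndc80* and *Racgap1*, whose values are uncertain to that extent. *Foxm1* and *Top2a* share exon bases with genes on the same strand. The 25 genes with none of these are part of the 42, so that all 25 were necessarily lower in TGF-β than in CTRL and in GDF15. Their median changes were -0.46 and -0.48, and those of the 42 were -0.52 and -0.49.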

How the data were processed

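The deposited table holds FPKM for 3 libraries, CTRL, GDF15 and TGF-β, matched to samples by the treatment in each column name. Per the labels, the submitters' processing notes name TopHat 1.3.2, Bowtie 0.12.9 and Cufflinks 2.0.2 and the build mm10, and the authors kept protein coding genes reviewed in UniProt. FPKM were used as deposited. The genes and all lists were chosen with earlier results of these data known.

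Changes are differences of log2(FPKM + 1), summarised where the mean FPKM over the libraries was 1 or more. With 1 library per treatment no test was possible. In each role, values are given for the gene with the highest mean FPKM and those with the largest changes, and for genes over 1.5-fold, in the other lists for at most 5 genes over 1.5-fold. Of the other lists, *Ncapd2*, *Ncaph*, *Mybl2*, *Wee1*, *Cdkn1a*, *Fzr1*, *Pcna*, *Ung*, *Pola2*, *Ccne1*, the *Mcm* genes, *Chek2* and *Ccnd1* were chosen after their values were seen, as were the remaining genes of the roles.

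Depth was estimated from the lowest cluster of FPKM times length over genes with a single transcript of over 2000 bases, and covers counting error only. Transcript length, GC content and overlaps came from GENCODE M21 (GRCm38, the same assembly as mm10), where 14725 of 15554 rows were found under their own symbol and 746 under an earlier one. Promoters came from RefSeq, GRCm38.p6. Near-identical sequences were sought with blastn (BLAST 2.17.0). Trends were removed as running medians over 501 genes. The scripts were tested on simulated data. Python 3.11.15, pandas 2.3.3 and numpy 2.4.6 were used for computation and matplotlib 3.10.9 for figures.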

Additional observations from a re-analysis of the deposited data

Results flagged for a closer look

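Of the 42 genes, 20 had values higher than CTRL after GDF15 (by 0.017 to 0.28 on the log2 scale) and lower after TGF-β, as had 14.4% of all genes. Since all 42 were lower after TGF-β, the 20 are simply the genes higher in GDF15. Of the 9226 genes tested, 4097 were higher in GDF15, a share near that of the 20. None of the 20 was over 1.5-fold higher in GDF15. *Kif4*, *Prc1* and *Sgol1*, at 101%, 101% and 102% of CTRL, lay within the counting errors in CTRL of 4.05%, 3.09% and 8.22%. The increases of *Nusap1* and of *Ccnb1*, which is among the 6 genes named below, also lay within their counting errors in CTRL. With the trends of length and GC content removed, 14 of the 42 had this order, 11 of the 20 and 3 others (12.0% of all genes), and under scaling to a common total 26 (16.6%). None was lower after GDF15 and higher after TGF-β. For 6 of the 20 the stimulated libraries were also over 1.5-fold apart, with differences of TGF-β from GDF15 of -0.86 for *Kif23*, -0.67 for *Kif20b*, -0.65 for *Hmmr*, -0.62 for *Top2a*, -0.60 for *Ccnb1* and -0.59 for *Bub1b*. Both held for 0.217% of all genes, and 0.629% were over 1.5-fold lower in TGF-β than in GDF15. Of the same 20 genes, 11 were over 1.5-fold apart without a pseudocount, these 6 among them (1.60% of all genes were that much lower), 3 after upper quartile scaling (0.488%) and 2 with the trends of length and GC content removed (0.457%). The difference between the stimuli was not tested, since each has 1 library. The part of transcript length in these increases by GDF15 was not tested, and all genes over 3281 bases had a median increase of 0.059.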

How the results depend on the processing

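No paired analysis was possible because there is a single library of pooled RNA per treatment, which also means that none could be left out. The joint removal of length and GC trends and the restriction to the 25 genes with no shared sequence were chosen after seeing the data. Under all alternatives every gene tested was lower in TGF-β than in CTRL and than in GDF15, with median changes of -0.57 to -0.43 and of -0.56 to -0.43. Only the scalings and the removal of trends could have turned a direction. A pseudocount cannot, and the minimum mean FPKM and the restricted list only choose among genes that were all lower. The numbers of genes tested were 42, or 37 at a minimum mean FPKM of 5 and 25 in the restricted list, in which 13 were lower in GDF15. The median by GDF15 ranged from -0.027 to 0.083. Scaling to a common total gave the 0.083, moved the median of all genes from -0.033 to 0.066 and left 16 genes lower. With length and GC content removed, 28 were lower.

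How many genes passed a fold depended on the pseudocount. With the share of all genes under the same setting in brackets, over 1.5-fold lower in TGF-β than in CTRL were 18 genes at a pseudocount of 0.1 (4.67%), 20 without one (4.82%), 6 with length and GC trends removed (1.81%) and 6 in the restricted list (3.01%). Against GDF15 they were 16 at 0.1 (1.51%), 17 without one (1.60%), 4 after upper quartile scaling (0.488%), 4 after removal of the expression trend (0.531%), 4 in the restricted list (0.597%) and 3 with length and GC trends removed (0.457%). Over 2-fold from CTRL in TGF-β were 1 gene at 0.5 (1.77%), 2 at 0.1 (2.18%) and 2 without one (2.31%), and from GDF15 1 at 0.1 (0.401%) and 1 without one (0.412%). Of 1320 values of single genes, 1313 moved by less than the spread of all genes (a robust SD) and 7 by more, and no change over 1.5-fold turned in direction. These include 126, 111 and 75 values from the 2 changes of the minimum mean FPKM and the restricted list, which could not move. Small changes could also turn in direction and count among the 1313, as did those that turned by GDF15 under scaling to a common total.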
